A study of Mus musculus with 18 samples.

Results

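The striated muscle thin filament genes described here were 10 genes listed by symbol, chosen with earlier results of these data known. They were the striated actins Actc1 and Acta1, the troponin T genes Tnnt2 and Tnnt1, and the troponin I genes Tnni1 and Tnni3. The troponin C genes Tnnc1 and Tnnc2 and the tropomyosins Tpm1 and Tpm2 completed the set. All 10 had a row among the 24514 genes of the deposited counts, and 9 passed the filter on low counts that left 13802 genes for testing. Tnnt1 did not pass, and Tnni1 and Tnni3 passed only through their day 3 libraries, so that a low level before day 3 and a rise to it were conditions of their being tested. RNA was sequenced in bulk from 1 line of mouse embryonic fibroblasts, iMGT-Myh6-eGFP-MEF, in which doxycycline switches on the cardiac transcription factors Mef2c, Gata4 and Tbx5 and in which a green reporter follows the cardiac myosin gene Myh6. The 6 groups, of 3 libraries each, crossed 2 siRNAs with 3 days. Cells of the siControl groups received a control siRNA and those of the siChst7 groups an siRNA against Chst7, a Golgi sulfotransferase gene, both on the day before day 0. The day 0 groups were taken without doxycycline, and the day 1 and day 3 groups 1 and 3 days after doxycycline at 1 µg/mL. Each sample pooled 40 wells plated at 1000 cells and is named a biological replicate of its group. No cells kept without doxycycline were sampled at day 1 or day 3, so that the effect of the induced factors and that of time in culture cannot be told apart. All p-values measure the spread between samples of this 1 line.

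The thin filament is the actin-based part of the contractile lattice of heart and skeletal muscle. Tropomyosin lies along the actin filament and, at rest, covers the sites to which myosin binds. The troponin complex holds it there: troponin T ties the complex to tropomyosin, troponin I inhibits contraction, and troponin C binds calcium and releases the inhibition. Heart muscle uses Actc1, Tnnt2, Tnni3, Tnnc1 and Tpm1, with the slow skeletal form Tnni1 in place of Tnni3 in the embryonic heart. Acta1 and Tnnc2 are best known from skeletal muscle, where Tnnt1 belongs to slow fibres and Tnnc2 to fast fibres. Tpm1 and Tpm2 also give rise to forms made in smooth muscle and fibroblasts, which counts per gene do not separate.

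The 250 bases upstream of the transcript start of 4 genes are shown because the results turn on these genes: Actc1, Tnnt2 and Tnnc1 for their rise with induction and Acta1 for a change of side under the Chst7 siRNA. The sequences are from RefSeq, build GRCm38.p6, 5′ to 3′ on the strand of the gene. Capitals mark motif letters found by search on both strands: the serum response element known as the CArG box, the GATA core (GATAA), the element called M-CAT (CATTCC), the E-box searched here (CAGCTG) and the TATA box (TATAAA). A match on the other strand appears as the reverse complement. No marked motif overlapped another.
Actc1 (chr2:114052876-114053125, minus strand): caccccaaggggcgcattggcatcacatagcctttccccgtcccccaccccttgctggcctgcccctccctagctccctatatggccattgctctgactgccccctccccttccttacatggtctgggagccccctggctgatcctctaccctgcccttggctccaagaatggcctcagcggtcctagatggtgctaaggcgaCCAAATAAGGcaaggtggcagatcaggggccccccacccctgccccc
Acta1 (chr8:123894776-123895025, minus strand): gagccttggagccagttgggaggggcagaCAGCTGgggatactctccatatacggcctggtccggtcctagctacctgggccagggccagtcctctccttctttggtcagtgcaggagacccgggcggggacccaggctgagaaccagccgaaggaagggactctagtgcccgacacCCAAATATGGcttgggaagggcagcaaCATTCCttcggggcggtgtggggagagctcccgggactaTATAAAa
Tnnt2 (chr1:135836084-135836333, plus strand): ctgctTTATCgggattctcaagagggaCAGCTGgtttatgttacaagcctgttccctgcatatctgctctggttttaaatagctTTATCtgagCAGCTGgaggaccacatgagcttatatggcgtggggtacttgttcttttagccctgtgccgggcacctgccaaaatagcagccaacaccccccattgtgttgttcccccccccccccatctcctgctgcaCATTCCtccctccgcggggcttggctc
Tnnc1 (chr14:31208062-31208311, plus strand): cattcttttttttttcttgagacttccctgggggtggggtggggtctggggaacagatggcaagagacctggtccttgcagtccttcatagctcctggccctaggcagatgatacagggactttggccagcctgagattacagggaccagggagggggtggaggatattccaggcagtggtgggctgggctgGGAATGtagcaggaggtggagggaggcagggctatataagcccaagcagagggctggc

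All 10 genes had a promoter entry in RefSeq, and each motif was also counted over 27025 promoters of the same length. The start is that of the promoter entry, which is not always the end of the gene span. For Tnni1 and Tpm1 the whole window lies inside the gene span, and for Tnnt2, Tnni3 and Tpm2 a part of it does. The CArG box was found in 2 of the 10, both striated actins, and in 1.41% of all promoters. In Actc1 it lay 47 to 38 bases before the start, and in Acta1 73 to 64 bases before it. CATTCC was found in 4 of the 10 (Acta1, Tnnt2, Tnnc1 and Tpm1) and in 12.64% of all promoters. In each of these 4 genes it lay within the last 58 bases before the start. GATAA was found in 1 of the 10, Tnnt2, where it occurred at 2 places, and in 22.98% of all promoters. The T-box half-site AGGTGT was found in 3 of the 10 (Tnnt1, Tnni1 and Tnni3) and in 12.04% of all promoters, CAGCTG in 4 and in 12.74%, and TATAAA in 2 and in 12.98%. The MEF2 site was found in 0 of the 10 and in 3.03% of all promoters. A match describes only these letters in this window.

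**Figure D1:**
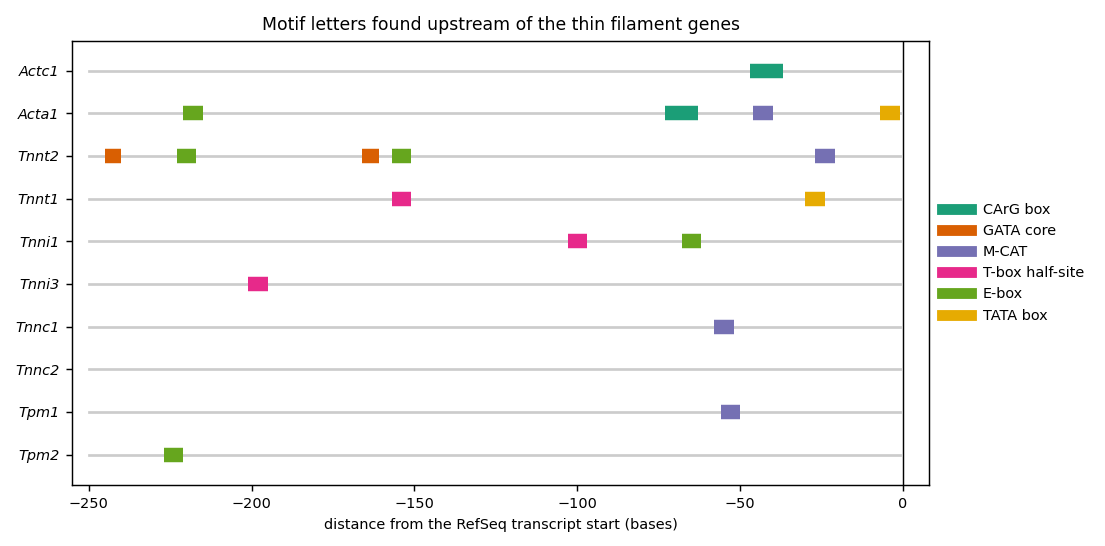
Motif letters in the 250 bases upstream of the RefSeq transcript start of the 10 thin filament genes, with the distance from the start in bases on the horizontal axis and 1 line per gene. The CArG box appears on the lines of Actc1 and Acta1 only, and the CATTCC blocks (M-CAT) of Acta1, Tnnt2, Tnnc1 and Tpm1 all lie near the start.

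Total counts per library ran from 30590742 to 50021142. The targeted gene Chst7 was at 18.6 to 40.4 CPM (counts scaled to library size with TMM factors) in the siControl libraries of the 3 days. In the siChst7 libraries it was at 0.238 to 0.611 CPM at day 0, 0.582 to 0.950 at day 1 and 1.64 to 2.96 at day 3. The log2 difference was -5.47 ± 0.18, -5.65 ± 0.17 and -3.54 ± 0.15 (SE) at these days, so that the estimated knockdown was weaker at day 3. The 3 siChst7 libraries of day 3 differed among themselves more than other replicates: a chi-square of their counts per degree of freedom was 22.6 to 59.2, against 2.96 to 5.48 for the 13 replicate pairs that held neither these libraries nor siChst7 day 0 replicate 3, whose 2 pairs were at 15.2 and 15.6. Replicate 1 of siChst7 at day 3 had 1.96% of its counts on the ribosomal RNA gene Rn45s, and the other 17 libraries had 0.131% to 0.654%. Of all entries between 1 and 20 in the deposited table, 63.0% were even numbers. Where both mates of a read pair were counted, a count is not an independent molecule. Counting intervals and the floor of 3 counts given here cover counting error only, and are repeated with halved counts where they matter.

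Most of the tested thin filament genes rose at each step after induction, with the tropomyosin Tpm1 as the exception after day 1. Tnni1 and Tnni3 are left out of the counts here, since the filter itself fixed their rise to day 3, which leaves 7 genes. In siControl cells 6 of the 7 rose from day 0 to day 1, all but Tnnc2, and 0 fell, where 29.5% of all tested genes rose and 30.8% fell (edgeR adjusted p below 0.05). Actc1 is kept among the 7, though it held 2 counts at day 0 in each arm and passed the filter only through later libraries. The filter thus favoured its rise from day 0 in both arms. The median of the 7 was a log2 fold change of 0.83, and that of all tested genes was -0.0016. From day 1 to day 3, 6 of the 7 rose and Tpm1 fell in siControl cells, where 22.8% of all genes rose and 32.3% fell, with medians of 2.05 and -0.05. In siChst7 cells 6 rose to day 1, again all but Tnnc2, and 0 fell, where 29.5% rose and 30.5% fell, and 6 rose and Tpm1 fell from day 1 to day 3, where 31.7% rose and 33.5% fell. The share of rises among all called genes moved with the scaling in the later step: it was 41.4% in siControl cells and 48.6% in siChst7 cells, and 65.0% and 60.9% with library totals alone. In bulk RNA a change in the number of cells of a type and a change in RNA per cell cannot be told apart.

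**Figure D2:**
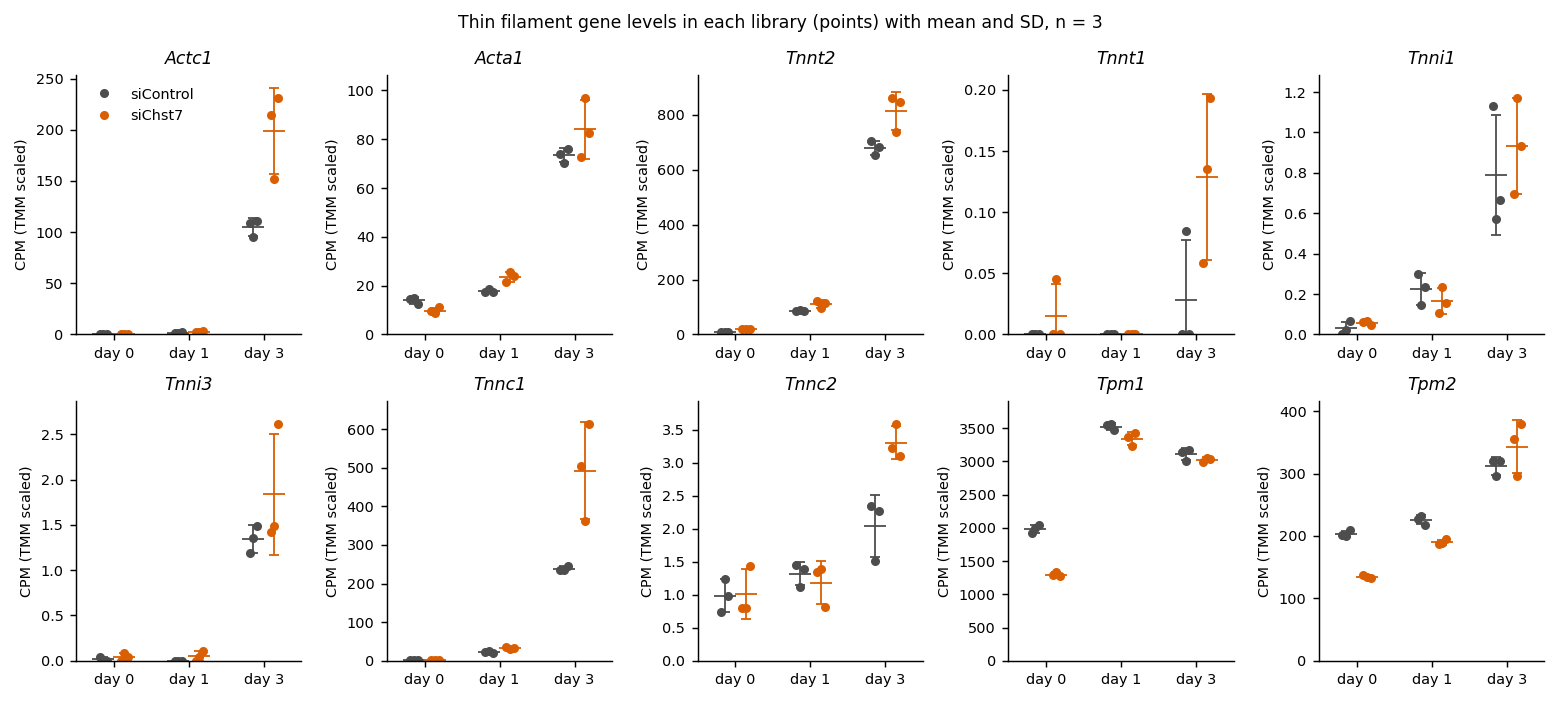
CPM of each of the 10 thin filament genes (vertical axes, each on its own linear scale) by day, in siControl (grey) and siChst7 (orange) libraries. Points are single libraries, horizontal marks the mean of 3 and bars the SD; most genes are near 0 at day 0 and highest at day 3, whereas Tpm1 and Tpm2 are already high at day 0.

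Actc1, which encodes the actin of the heart sarcomere (chr2:114047282-114052875, minus strand), went from almost no counts at day 0 to many at day 3. At day 0 a single siControl library held 2 counts and the others 0. At day 1 the siControl libraries were at 1.78, 1.35 and 2.47 CPM, and at day 3 at 109, 94.96 and 111 CPM. The groups did not overlap. The ratio of day 1 to day 0 was 124 in siControl cells (95% counting interval 34.0 to 1035, or 21.9 to 4990 with halved counts), and the rise from day 1 to day 3 was 5.81 ± 0.18 (log2 fold change ± SE, edgeR adjusted p = 7.99e-17).

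With the Chst7 siRNA, Actc1 also held 2 counts in all at day 0, so that no fold between the siRNAs is given there. At day 1 the siChst7 libraries were at 2.72, 2.09 and 3.14 CPM, which overlapped the siControl range, and the difference of 0.50 ± 0.26 (log2) was not called (edgeR adjusted p = 0.215). It was called with the replicate number as a block (adjusted p = 0.0439), with DESeq2 (0.0351) and without the filter (0.0027). At day 3 the siChst7 libraries were at 214, 152 and 231 CPM, all above the siControl libraries. Actc1 was higher by 0.92 ± 0.12 (log2; edgeR adjusted p = 2.61e-06), and by 0.74 to 1.08 without single libraries. Replicate 2 was the lowest of the 3.

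Acta1, the actin of adult skeletal muscle, which the embryonic heart also makes (chr8:123891758-123894775, minus strand), was measurable from the start. In siControl cells it was at 14.5, 15.1 and 12.5 CPM at day 0, at 17.5, 18.5 and 17.4 CPM at day 1 and at 73.8, 70.3 and 76.2 CPM at day 3. It rose by 0.34 ± 0.10 (log2) to day 1 and by 2.05 ± 0.09 from day 1 to day 3 (edgeR adjusted p = 0.0055 and 8.72e-14). Of the windows of 50 bases along its transcript, 2.22% also occur in transcripts of other genes, Actb among them, and no such window was found for the other 9 genes.

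Acta1 changed sides under the Chst7 siRNA. The siChst7 libraries were at 9.42, 8.94 and 11.1 CPM at day 0, all below siControl (-0.52 ± 0.10 on the log2 scale, edgeR adjusted p = 0.000595). At day 1 they were at 21.3, 25.4 and 24.1 CPM, all above siControl (0.41 ± 0.10, edgeR adjusted p = 0.00471). The difference between these effects was itself called, at 0.93 ± 0.14 (edgeR adjusted p = 9.98e-05). At day 3 the siChst7 libraries were at 72.9, 96.8 and 82.5 CPM and overlapped siControl, and the difference of 0.20 ± 0.09 was not called (edgeR adjusted p = 0.0672), though it was without replicate 1 of siChst7 (0.29, adjusted p = 0.0111).

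Tnnt2, which encodes cardiac troponin T (chr1:135836315-135852268, plus strand), had the highest level per length of the 6 troponin genes in siControl cells at day 3, at 543 ± 19.8 CPM per kilobase against 339 ± 8.98 for Tnnc1 (SD, n = 3), whereas in siChst7 cells the values were 651 ± 55.0 and 701 ± 178 and lay within the spread of the libraries. In siControl cells it was at 10.1, 9.94 and 8.92 CPM at day 0, at 84.4, 89.6 and 84.6 CPM at day 1 and at 703, 654 and 683 CPM at day 3, with no overlap between days. It rose by 3.16 ± 0.08 (log2) to day 1 and by 2.98 ± 0.07 from day 1 to day 3 (edgeR adjusted p = 4.91e-19 and 1.20e-18).

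Tnnt2 was called higher with the Chst7 siRNA at day 0, before any doxycycline, and no other gene of the set was; the estimates for Tnni1 and Tnni3, which rest on 4 against 8 and 2 against 6 counts, were also above 0 and were not called. The siChst7 libraries were then at 20.4, 21.5 and 20.5 CPM, all above siControl, a difference of 1.11 ± 0.08 (log2; edgeR adjusted p = 1.85e-09). At day 1 they were at 122, 96.3 and 114 CPM and again all above siControl, but the difference was 0.36 ± 0.07 (edgeR adjusted p = 0.000732). The effect was smaller at day 1 than at day 0 by -0.75 ± 0.11 (edgeR adjusted p = 6.18e-05). At day 3 they were at 861, 736 and 849 CPM, and the difference was 0.26 ± 0.07 (edgeR adjusted p = 0.00263). The estimated fold was smaller at the later days, while the level of Tnnt2 in CPM rose in both arms; day 0 and day 3 were not tested against each other.

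Tnnt1, which encodes slow skeletal troponin T (chr7:4504569-4515975, minus strand), was near 0 in all 18 libraries. It held 0, 0 and 4 counts in siControl cells at days 0, 1 and 3 and 2, 0 and 14 counts in siChst7 cells. The ratio of siChst7 to siControl at day 3 was 4.02 (95% counting interval 1.26 to 16.8), and with halved counts the interval ran from 0.765 to 39.6. The fast skeletal form Tnnt3, which is not of the set, reached 12.1 ± 1.78 CPM (SD, n = 3) in siControl and 14.3 ± 3.42 CPM in siChst7 cells at day 3.

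The troponin I genes stayed low. Tnni3, which encodes cardiac troponin I (chr7:4518305-4522718, minus strand), held 2, 0 and 171 counts in siControl cells at days 0, 1 and 3, and was at 1.19, 1.36 and 1.49 CPM at day 3. Its level at day 3 was at least 46.3-fold higher than at day 1 when the floor of 3 counts over the day 1 group is used, and at least 23.3-fold with halved counts. In siChst7 cells Tnni3 held 6, 6 and 196 counts, and was at 1.42, 1.48 and 2.61 CPM at day 3. The siRNA groups overlapped at day 3, and the difference of 0.43 ± 0.36 (log2) was not called (edgeR adjusted p = 0.351).

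Tnni1, the slow skeletal and embryonic cardiac troponin I gene (chr1:135783033-135810989, plus strand), held 4, 23 and 96 counts in siControl cells and was at 1.13, 0.572 and 0.666 CPM at day 3. The ratio of day 1 to day 0 was 7.49 (95% counting interval 2.56 to 29.8, or 1.74 to 71.9 with halved counts). At day 1 the siControl libraries were at 0.301, 0.144 and 0.233 CPM, all below those of day 3, and no test of that step is given because the gene passed the filter only through day 3. In siChst7 cells it held 8, 20 and 105 counts and was at 0.697, 1.17 and 0.934 CPM at day 3, which overlapped siControl. The difference at day 3, of 0.27 ± 0.36, was not called (edgeR adjusted p = 0.568). Tnni1 lies 25326 bases from Tnnt2 on chromosome 1, with Lad1 between them, and Tnni3 lies 2330 bases from Tnnt1 on chromosome 7. Per kilobase of deposited gene length, Tnni1 was at 0.708 ± 0.268 CPM and Tnnt2 at 543 ± 19.8 CPM in siControl cells at day 3 (SD, n = 3).

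Tnnc1, which encodes the troponin C of heart and slow muscle (chr14:31208312-31211729, plus strand), had the largest estimated difference between the siRNAs at day 3 among the 9 tested genes, with that of Actc1 next. In siControl cells it was at 1.91, 2.19 and 2.05 CPM at day 0, at 22.3, 25.4 and 20.9 CPM at day 1 and at 235, 234 and 245 CPM at day 3. It rose by 3.47 ± 0.18 (log2) and then by 3.38 ± 0.13 (edgeR adjusted p = 1.67e-13 and 2.59e-15). The days did not overlap.

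At day 0 the siChst7 libraries were at 2.00, 1.88 and 1.49 CPM for Tnnc1, which overlapped siControl, and the difference of -0.19 ± 0.26 was not called (edgeR adjusted p = 0.656). At day 1 they were at 35.7, 31.3 and 32.2 CPM, all above siControl, by 0.53 ± 0.13 (edgeR adjusted p = 0.00569). At day 3 they were at 504, 363 and 612 CPM, also all above siControl, by 1.05 ± 0.11 (edgeR adjusted p = 2.79e-07). Replicate 2 was again the lowest, and the difference ran from 0.81 to 1.23 without single libraries. The growth of the effect from day 1 to day 3, 0.52 ± 0.17, had an edgeR adjusted p of 0.0264. It missed the threshold in 9 of 20 alternatives: a fit of the compared libraries only (adjusted p = 0.0551), DESeq2 (0.0826), and leaving out siChst7 day 3 replicate 3 (0.29, adjusted p = 0.0756) and replicate 1 (0.50, adjusted p = 0.0558), siChst7 day 1 replicate 2 or 3, siControl day 1 replicate 2 and siControl day 3 replicate 1 or 2.

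Tnnc2, which encodes the fast skeletal troponin C (chr2:164777161-164779734, minus strand), was at 0.738, 1.24 and 0.981 CPM at day 0, at 1.45, 1.12 and 1.40 CPM at day 1 and at 2.34, 1.51 and 2.27 CPM at day 3 in siControl cells. The rise to day 1 was not called (0.42 ± 0.28, edgeR adjusted p = 0.209), and that from day 1 to day 3 was near the threshold (0.62 ± 0.26, adjusted p = 0.049). It was lost without any 1 of 5 libraries (siControl day 1 replicates 1, 2 and 3 and siControl day 3 replicates 1 and 3), with an adjusted p of up to 0.161. In siChst7 cells Tnnc2 was at 3.22, 3.58 and 3.09 CPM at day 3, above all siControl libraries. The difference there was 0.71 ± 0.23 (edgeR adjusted p = 0.0179), and 0.52 (adjusted p = 0.116) without siControl replicate 2. At days 0 and 1 the siRNA groups overlapped.

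Counts of Tnnc2 are uncertain for another reason: 592 of its 800 annotated exon bases (74.0%) lie under exons of Ube2c, a cell division gene on the opposite strand, and the strand setting of the counting is not given in the sources used here. Ube2c was far more abundant, at 166 ± 1.53 CPM in siControl cells at day 0 and 109 ± 2.62 CPM at day 3 (SD, n = 3). It fell in siControl cells from day 1 to day 3 by 0.34 ± 0.04 on the log2 scale (edgeR adjusted p = 6.89e-08), and was higher in siChst7 than in siControl cells at day 3, by 0.16 ± 0.04 (edgeR adjusted p = 0.00139). The part of Ube2c reads in the Tnnc2 counts was not tested.

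Tpm1, the main tropomyosin of the heart, which fibroblasts also make (chr9:67022590-67049672, minus strand), was abundant before induction. In siControl cells it was at 1921, 1990 and 2045 CPM at day 0, at 3552, 3555 and 3465 CPM at day 1 and at 3134, 3004.5 and 3175 CPM at day 3. It rose by 0.83 ± 0.04 (log2) to day 1 (edgeR adjusted p = 1.44e-14). From day 1 to day 3 Tpm1 fell by 0.18 ± 0.04 in siControl cells and by 0.14 ± 0.04 in siChst7 cells (edgeR adjusted p = 0.000285 and 0.00221), but neither fall was called with library totals alone (-0.04 in each arm, adjusted p = 0.515 and 0.457) or with upper quartile scaling (adjusted p = 0.0848 and 0.193), nor was that of siChst7 cells in a fit of the compared libraries only (0.092). Library totals moved the median of all genes in this step from -0.05 to 0.10 for siControl cells, and for siChst7 cells from 0.01 to 0.12. Relative to that median Tpm1 was at -0.14 in siControl cells under each of the 2 scalings, and at -0.16 in siChst7 cells. A change of scaling moves all genes nearly alike, so that this agreement was fixed in advance and is no test of the fall.

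At day 0 the siChst7 libraries were at 1290.5, 1332 and 1269 CPM for Tpm1, all below siControl, by -0.61 ± 0.04 (log2; edgeR adjusted p = 5.03e-11). By day 1 they were at 3369, 3238 and 3419 CPM, still all below siControl, but the difference of -0.08 ± 0.04 was not called (edgeR adjusted p = 0.18; 0.00343 in a fit of the compared libraries only). The difference between the effects of the 2 days was 0.54 ± 0.05 (edgeR adjusted p = 4.13e-07). At day 3 they were at 2989.5, 3054 and 3037 CPM and overlapped siControl, with a difference of -0.04 ± 0.04 (edgeR adjusted p = 0.462).

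Tpm2, the beta tropomyosin of slow muscle and of smooth muscle (chr4:43513726-43523583, minus strand), was lower with the Chst7 siRNA at days 0 and 1, and overlapped siControl at day 3. In siControl cells it was at 202, 199.95 and 209 CPM at day 0, at 228, 232 and 218 CPM at day 1 and at 321, 295.5 and 320 CPM at day 3. It rose by 0.15 ± 0.06 (log2) to day 1 (edgeR adjusted p = 0.039, and 0.0924 to 0.13 without siControl day 0 replicate 1 or 2 or siControl day 1 replicate 1 or 2) and by 0.46 ± 0.06 from day 1 to day 3 (adjusted p = 1.08e-06).

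With the Chst7 siRNA Tpm2 was at 138, 135 and 132 CPM at day 0, all below siControl (-0.60 ± 0.06 on the log2 scale, edgeR adjusted p = 1.63e-07). At day 1 it was at 188, 188 and 195 CPM, also all below (-0.25 ± 0.06, edgeR adjusted p = 0.0059). At day 3 it was at 355, 296 and 379 CPM and overlapped siControl, and the difference of 0.14 ± 0.06 was not called (edgeR adjusted p = 0.0723), though it was without siChst7 replicate 2 (0.23, adjusted p = 1.21e-05). The effect moved upward from day 0 to day 1 by 0.35 ± 0.09 and from day 1 to day 3 by 0.39 ± 0.09 (edgeR adjusted p = 0.0106 and 0.00224).

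Read across the set, the Chst7 siRNA went with lower Acta1 and tropomyosin at day 0 and with higher Actc1 and troponin T and C at day 3. Tnni1 and Tnni3 were called at none of the 3 days, and the counts are over the other 7 tested genes. At day 0, 1 was higher (Tnnt2) and 3 were lower (Acta1, Tpm1 and Tpm2), where 13.9% of all genes were higher and 13.5% lower. The share of higher genes among all called was 50.6% there, and 69.4% with library totals alone. At day 1, 3 were higher (Acta1, Tnnt2 and Tnnc1) and 1 was lower (Tpm2), where 8.86% and 8.72% of all genes were. At day 3, 4 were higher (Actc1, Tnnt2, Tnnc1 and Tnnc2) and 0 lower, where 23.1% were higher and 21.6% lower. The medians of the 7 were 0.36 and 0.26 (log2) at days 1 and 3, and those of all genes were 0.01 and 0.01; none is given for day 0, where Actc1 has no fold.

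The change of the siChst7 effect from day 0 to day 1 was called upward for 3 genes (Acta1, Tpm1 and Tpm2) and downward for 1 (Tnnt2), where 6.2% and 5.5% of all genes were, and the share of upward calls over all genes was 53.0%, or 30.2% with library totals alone. From day 1 to day 3 it was called upward for 2 genes (Tnnc1 and Tpm2) and downward for 0, where 15.3% and 13.1% of all genes were. Tnnc1 has 703 bases, and genes shorter than 1600 bases had a median change of 0.27 in this step, with 29.6% called upward, so that length moved with this result as well; its part was not tested. The number of genes called in either direction was 1 to 4 without single libraries, with 4 when siChst7 day 3 replicate 2 was left out and 1 when any library named above for Tnnc1 was. These comparisons share libraries with each other, and with the comparisons within a day.

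**Figure D3:**
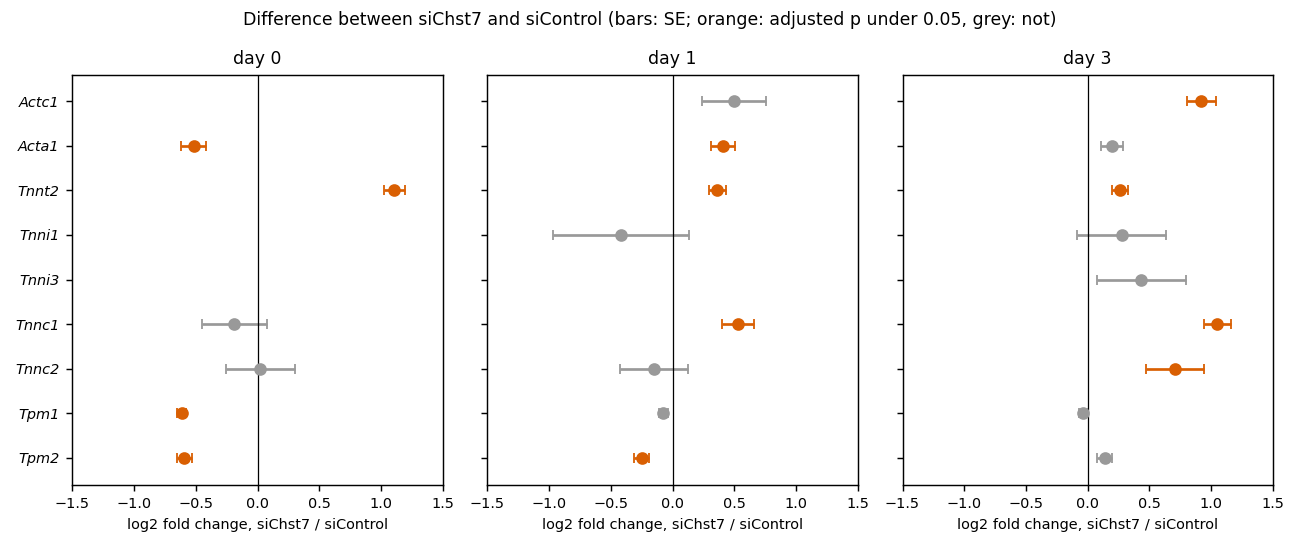
Log2 fold change of siChst7 against siControl (horizontal axis, bars are SE) for the 9 tested thin filament genes at day 0, day 1 and day 3, in orange where the edgeR adjusted p was below 0.05. Genes with 10 or fewer counts in a group are not drawn for that day; Acta1, Tpm1 and Tpm2 lie left of 0 at day 0, and Actc1 and Tnnc1 lie farthest right at day 3.

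At day 3 gene length moved with the difference between the siRNAs. Among the 2805 tested genes shorter than 1600 bases in the deposited lengths, the median log2 fold change was 0.30 and 43.7% were higher, against a median of -0.03 for longer genes. Of the thin filament genes 7 tested ones are this short, and 4 of the 7 were higher: Actc1 at 1459 bases, Tnnt2 at 1252, Tnnc1 at 703 and Tnnc2 at 692. The other 3, Acta1 at 1571 bases, Tnni1 at 1114 and Tnni3 at 824, were not called, nor were the 2 tropomyosin genes, at 3279 and 3326 bases. The value of 0.26 for Tnnt2 was below the median of the short genes, and those of Actc1 (0.92) and Tnnc1 (1.05) were above it. Without siChst7 replicate 1, 2 or 3 the median of the short genes was 0.27, 0.39 and 0.20, and 5, 5 and 4 thin filament genes were higher. At days 0 and 1 the medians of the short genes were -0.02 and 0.04. From day 1 to day 3 the short genes had a median of 0.29 in siChst7 cells, with 45.4% called higher, and of -0.01 in siControl cells, with 19.8%. The part of length in these differences was not tested.

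The summed CPM of 13 cardiomyocyte markers was 6.29 to 6.91 in siControl and 3.55 to 4.60 in siChst7 libraries at day 0, and 348 to 382 and 417 to 600 at day 3. Most of the day 3 sum was Myl4 and Myl7, at 249 and 68.6 CPM in siControl and 318 and 135 CPM in siChst7 cells. In siControl cells 7 of 9 tested markers rose from day 1 to day 3 and 2 fell, where 22.8% and 32.3% of all genes did. Those that fell were Myh6 and Myh7, by -1.01 and -0.76 (log2, edgeR adjusted p = 5.67e-05 and 0.0373). Myl2 and Ryr2 were at 0.02 CPM at day 1, so that the filter favoured their rise. Nkx2-5 was at 0 in all siControl libraries, and Myl3 in all 18. The summed CPM of 16 skeletal muscle markers was at most 3.08 in any library, and Myf6 was at 0 in each siControl group. Of 5 tested skeletal muscle markers 3 rose from day 1 to day 3 in siControl cells (Myog, Ckm and Myh1) and 1 fell (Actn3). Of all genes 22.8% rose and 32.3% fell there. Myog, Ckm and Myh1 held 0 counts at day 0 and 87, 68 and 44 at day 3 in siControl cells. They were near 0 before day 3, so that the filter favoured their rise. The 8 smooth muscle markers summed to 327 to 345 in siControl and 179 to 185 in siChst7 libraries at day 0, and to 444 to 456 and 622 to 708 at day 3. At day 0 Tagln was at 226 ± 11.9 CPM in siControl and 92.4 ± 5.16 CPM in siChst7 cells (SD, n = 3). Without Tagln the day 0 sums were 105 to 111 and 89.4 to 92.1. Most of the day 3 sum was Tagln, at 249 ± 5.50 and 467 ± 49.8 CPM (SD, n = 3), and without it the other 7 summed to 199.6 to 207 in siControl and 182 to 191 in siChst7 libraries. Of 7 tested smooth muscle markers 2 were higher at day 3 (Tagln and Cnn1) and 2 lower (Mylk and Des), with a median of -0.03 (log2). The 9 fibroblast markers summed to 3324 to 4517 over the 6 groups. Tcf21 was at 0 in both day 0 groups and Thy1 in siChst7 at day 0. Most of the sum was Col1a1 and Col1a2. They were at 1794 and 1267 CPM in siControl cells at day 0 and at 3080 and 953 CPM at day 3. Of 6 tested fibroblast markers 5 fell and 1 rose from day 0 to day 1 in each arm. From day 1 to day 3, 4 rose and 1 fell in siControl cells, and 2 rose and 2 fell in siChst7 cells. The shares of all genes are those given above for these steps. The 7 macrophage and leukocyte markers summed to 18.6 to 66.0 and the 5 endothelial markers to 1.19 to 22.0. Of 9 tested cardiomyocyte markers 5 were higher with the Chst7 siRNA and 0 lower at day 3, where 23.1% and 21.6% of all genes were. Of the 5, Myl4, Myl7, Nppa and Nppb are shorter than 1600 bases, and 43.7% of genes this short were higher. Myh6, also of the 5, is longer. The cardiomyocyte list moved with the thin filament genes named above. Neither its part in those differences nor the part of length in the list was tested. The smooth muscle list moved in both directions.

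The proteins of the thin filament occur in fixed proportion, and the RNA of the families was compared per kilobase of deposited gene length. In siControl cells at day 3 the troponin T genes (Tnnt1, Tnnt2 and Tnnt3) summed to 554 CPM per kilobase, the troponin C genes to 342 and the troponin I genes (Tnni1, Tnni2 and Tnni3) to 2.78. Troponin T was thus 199 times and troponin C 123 times the level of troponin I. In siChst7 cells the 3 sums were 664, 706 and 3.71, and the ratios 179 and 190.5. The ratio of troponin T to troponin C was 1.62 in siControl and 0.94 in siChst7 cells at day 3. Tpm1 and Tpm2 together were at 1041 and 1026 CPM per kilobase in the 2 arms.

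The striated actins remained a small part of all actin RNA. Actc1 and Acta1 together went from 8.94 to 119 CPM per kilobase in siControl cells between day 0 and day 3, and from 6.25 to 190 in siChst7 cells. The cytoplasmic actins Actb and Actg1, which every cell uses, went from 5214 to 2464 and from 3683 to 2163. These are sums of group means, and no test was made on them.

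**Figure D4:**
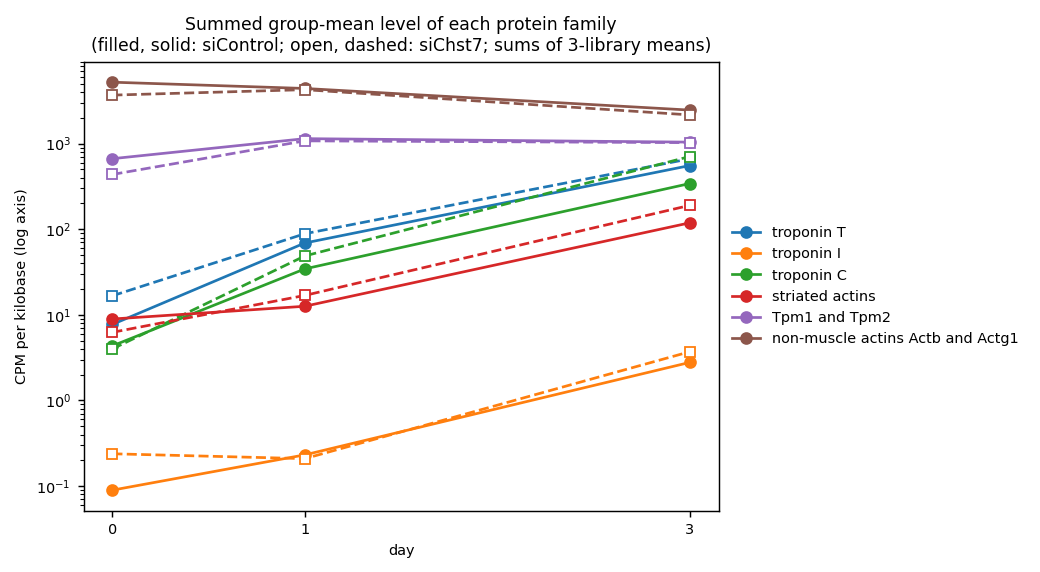
Summed level of each protein family in CPM per kilobase of deposited gene length (vertical log axis) against day, as sums of 3-library means, with siControl as filled circles and solid lines and siChst7 as open squares and dashed lines. At day 3 troponin I, at 2.78 and 3.71, lies far below troponin T, at 554 and 664, and troponin C, at 342 and 706.

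Within the families, the share of the cardiac form was tested between the siRNAs where a library held enough counts, over 13 tests. Actc1 made up 60.6% ± 1.17 (SD, n = 3) of Actc1 and Acta1 per length at day 3 in siControl cells and 71.3% ± 7.38 in siChst7 cells, with no overlap (exact two-sided permutation p = 0.1, the smallest that 3 against 3 can give, and 0.65 adjusted over the 13). Tpm1 made up 94.05% ± 0.109 of Tpm1 and Tpm2 at day 1 in siControl and 94.7% ± 0.105 in siChst7 cells (exact permutation p = 0.1, adjusted 0.65). The other 11 shares had exact p-values of 0.2 to 1. Tnnt2 made up 98.0% to 99.9% of troponin T RNA as group means, and Tnni3 59.6% ± 12.7 of troponin I RNA in siControl and 59.2% ± 6.18 in siChst7 cells at day 3. Tnnc1 went from 67.6% ± 4.18 of troponin C RNA at day 0 to 99.1% ± 0.188 at day 3 in siControl cells.

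The genes whose profile over the 18 libraries was nearest to a thin filament gene were found by the root mean square difference in centred log2 CPM, among 9892 genes. The nearest to Actc1 was Myl4, the atrial and embryonic myosin light chain gene, at 0.63, followed by Jph2, which encodes the protein that joins the cell membrane to the sarcoplasmic reticulum, at 0.84. Jph2 was also the nearest to Tnnc1, at 0.47. The nearest to Tnnt2 were Ces2e, a carboxylesterase gene, at 0.29, and the sarcomere genes Pdlim3, at 0.42, and Myom1, at 0.47. The nearest to Acta1 was Ckb, a creatine kinase gene, at 0.28, the nearest to Tpm1 was Cnst at 0.09 and that to Tpm2 was Zmat1 at 0.13. These are descriptions, and small values are easier to reach for genes that vary little: the SD over the libraries was 3.43 for Actc1 and 0.52 for Tpm1.

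Of 27 other thin filament genes in 5 lists, 26 were tested. In siControl cells 14 rose and 3 fell from day 0 to day 1, where 29.5% of all genes rose and 30.8% fell. The 14 rises include Lmod2, Lmod3, Tnnt3 and Neb, at 0.008, 0, 0.03 and 0.22 CPM at day 0. The filter favoured a rise of genes this low at day 0, so that their part of the count is no test. From day 1 to day 3, 8 rose and 10 fell, where 22.8% and 32.3% of all genes did. The 8 rises include Tnnt3, Tnni2, Tmod1 and Lmod3, at 0.18, 0.02, 0.19 and 0.25 CPM at day 1. For genes this low before day 3 the filter favoured a rise, so that their part of the count is no test. With the Chst7 siRNA 1 was higher and 13 were lower at day 0, 0 and 8 at day 1, and 5 and 7 at day 3, where the shares of all genes are those given above. Without siChst7 replicate 1, 2 or 3 the counts at day 3 were 5 and 8, 7 and 7, and 4 and 9. The medians of the 26 were -0.19, -0.16 and -0.05 (log2) at the 3 days. Gene length moved with the siRNA difference at day 3, as given above, and its part in these genes was not tested.

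All 4 other actins were lower with the Chst7 siRNA at day 0. The smooth muscle actins moved most: Acta2 was at 1294 ± 69.9 CPM in siControl and 468 ± 30.2 CPM in siChst7 cells (SD, n = 3), a difference of -1.47 ± 0.06 (log2; edgeR adjusted p = 1.81e-13), and Actg2 differed by -1.99 ± 0.12 (edgeR adjusted p = 2.66e-11). The cytoplasmic actins Actb and Actg1 differed by -0.52 ± 0.04 and -0.46 ± 0.05 (edgeR adjusted p = 3.30e-09 and 7.58e-08). At day 3 the smooth muscle actins were higher, Acta2 by 0.20 ± 0.06 and Actg2 by 0.61 ± 0.10, and the cytoplasmic ones lower, by -0.19 ± 0.04 and -0.19 ± 0.05 (edgeR adjusted p = 0.0108, 3.66e-05, 0.000897 and 0.00157). Both other tropomyosins were lower at day 0, Tpm3 by -0.31 ± 0.05 and Tpm4 by -0.49 ± 0.07 (edgeR adjusted p = 8.49e-05 and 8.47e-06). At day 3 Tpm3 was lower, by -0.27 ± 0.05, and Tpm4 higher, by 0.36 ± 0.07.

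Among the genes of filament length and the pointed end, Lmod2, which encodes the leiomodin that elongates thin filaments in the heart, held 1 count at day 0, 57 at day 1 and 584 at day 3 in siControl cells, and 1, 74 and 360 in siChst7 cells. The giant ruler gene Neb rose in siControl cells by 4.71 ± 0.31 (log2) to day 1 (edgeR adjusted p = 7.33e-12) and was at 5.78 ± 0.952 and 5.83 ± 0.661 CPM at days 1 and 3, whereas Nebl, its cardiac relative, held at most 2 counts in any group. Lmod1, the smooth muscle leiomodin, was lower with the Chst7 siRNA at day 0 by -1.34 ± 0.20 and at day 1 by -0.84 ± 0.17 (edgeR adjusted p = 1.93e-05 and 0.00107). At day 3 the difference was 0.27 ± 0.12 for Lmod1 and -0.48 ± 0.20 for Lmod2, and neither was called (edgeR adjusted p = 0.0739 and 0.0549).

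Among the genes of filament assembly and turnover, Fhod3, the formin of the heart sarcomere, rose in siControl cells from 9.21 ± 0.910 to 135 ± 0.883 CPM (SD, n = 3) by day 1, a log2 fold change of 3.87 ± 0.06 (edgeR adjusted p = 7.08e-23). It was lower with the Chst7 siRNA at day 1, by -0.19 ± 0.05, and at day 3, by -0.33 ± 0.05 (edgeR adjusted p = 0.0101 and 1.66e-05). Wdr1, which helps cofilin take filaments apart, was lower at each day, by -1.07 ± 0.04, -0.71 ± 0.04 and -0.58 ± 0.04 (edgeR adjusted p = 6.03e-15, 5.84e-12 and 4.47e-10). Fhod3 and Actc1 thus both rose after induction and lay on opposite sides of the siRNA comparison at day 3. Actc1 is shorter than 1600 bases and Fhod3 is longer. At day 3 the median difference of all tested genes was 0.30 below that length and -0.03 above it. The part of length in this contrast was not tested.

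**Figure D5:**
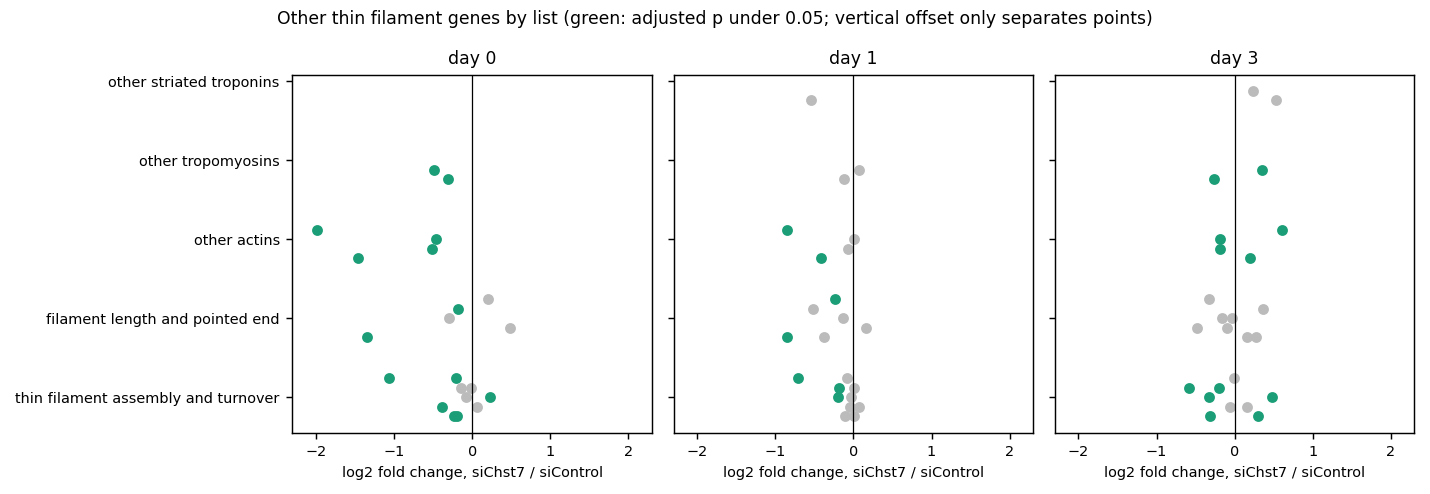
Log2 fold change of siChst7 against siControl (horizontal axis) for the other thin filament genes, in rows by list, at day 0, day 1 and day 3, with genes in green where the edgeR adjusted p was below 0.05. Genes with 10 or fewer counts in a group are not drawn; all 4 other actins lie left of 0 at day 0, between -0.46 and -1.99, and on both sides of it at day 3.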

How the data were processed

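The authors deposited whole-number read counts per gene and gene lengths; per the submitters' processing notes they used HISAT2, Subread, featureCounts and DESeq2 with build mm10. Neither versions nor the strand setting nor the handling of multiply mapped reads is stated there. Counts of 18 libraries entered 1 edgeR 4.0.16 quasi-likelihood fit (R 4.3.3) with 6 groups, TMM scaling, filterByExpr (minimum count 10) and 12 residual degrees of freedom. Benjamini-Hochberg adjustment ran over all 13802 tested genes, two-sided, and a gene was called below 0.05. The SE is the absolute log2 fold change over the square root of F. The common dispersion was 0.00331. The fit was run on simulated counts with 1 dispersion for all genes and groups. That setting lacks the wider spread of the siChst7 day 3 libraries, so the simulation does not bear on p-values there. Shares within families used exact permutation tests. Alternatives were other scalings, filters, DESeq2 1.42.0, a replicate block, the compared libraries only and leaving out each library.

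The 10 genes and all lists were chosen with earlier results of these data known, and are not independent evidence. Named beyond the 10 were called list members with the smallest p, list members chosen for their role, and the 3 nearest profiles among genes of at least 5 CPM (pseudocount 0.5). Coordinates are RefSeq, GRCm38, 1-based.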

Additional observations from a re-analysis of the deposited data

Results flagged for a closer look

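For 6 results a test of the difference itself found that the effect of the Chst7 siRNA differed between days, as a log2 difference of fold changes. From day 0 to day 1 the effect moved by 0.93 for Acta1, by -0.75 for Tnnt2, by 0.54 for Tpm1 and by 0.35 for Tpm2 (edgeR adjusted p = 9.98e-05, 6.18e-05, 4.13e-07 and 0.0106). From day 1 to day 3 it moved by 0.52 for Tnnc1 and by 0.39 for Tpm2 (edgeR adjusted p = 0.0264 and 0.00224). Day 0 libraries differ from the later ones both in doxycycline and in time since transfection, and these cannot be told apart.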

How the results depend on the processing

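Each of 70 fold changes was refitted under 12 to 20 alternatives, 1056 refits in all, of which 1010 kept direction and side of the threshold, 25 lost the call, 12 gained one and 9 changed sign, and 53 of the 70 never changed. Counts of called thin filament genes, over the 9 tested, stayed within 1.5 times except for the change of the siChst7 effect from day 1 to day 3, where the 2 calls became 1 with the compared libraries only and with the DESeq2 test, and 1 to 4 when single libraries were left out. The sign changes were all in values that were not called. They were Tnnc2 between the siRNAs at day 0 (-0.3171 to 0.2188 without single libraries) and day 1 (-0.2902 to 0.05674), the change of its effect from day 0 to day 1 (-0.3689 to 0.167), and the change for Tpm1 from day 1 to day 3 (-0.002759 with library totals alone, -0.02218 without a filter, -0.002353 with the compared libraries only, and -0.00327 to 0.05441 without single libraries). Among differences of shares, in percentage points, that of Tnni3 at day 3 was 0.2423 without length scaling and -7.184 to 5.389 without single libraries. Without single libraries the others ran from -0.2686 to 0.009024 for Tnnt2 at day 0, from -0.1515 to 0.1245 for Tnnt2 at day 3, from -7.35 to 3.105 for Tnnc1 at day 0, from -0.1136 to 0.1501 for Actc1 at day 0, from -0.7308 to 2.248 for Actc1 at day 1 and from -0.227 to 0.009374 for Tpm1 at day 0. Libraries with the same replicate number shared no large deviation: 0 of 45 correlations of same-numbered deviations passed 0.1 (-0.0656 to 0.0678). This check cannot show whether the samples were prepared as matched sets. With the replicate block the counts called were 7, 8, 6, 9, 4, 5, 4, 4 and 2 over the 9 comparisons; Tnnc2 in siControl cells from day 1 to day 3 was then lost (0.62, adjusted p = 0.0643) and Actc1 at day 1 gained (0.51, adjusted p = 0.0439). The cause of these changes was not tested. Leaving out siChst7 libraries at day 3 for the other thin filament genes, halving counts, and leaving Tnni1 and Tnni3 out of the counts, were chosen after seeing the data. Depth limits the troponin I genes, Tnnt1 and Tnnc2, which rest on few counts.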
